A study of Nematostella vectensis with 47 samples.

Results

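A set of 39 genes of the sea anemone Nematostella vectensis, of 19231 in the RNA-seq count table, had fewer RNA counts in F1 gastrulae of both demethylated lineages than in any F0 library, while the F0 gastrulae treated with the inhibitor stayed near their controls. The genes were chosen by their RNA values. Counts were scaled to CPM (counts-per-million of the library total), and the log2 ratio of a group was taken between its mean CPM and the DMSO mean after adding 0.5 CPM to each. A gene was kept when its DMSO mean was at least 2 CPM, its F0 GSK ratio lay between -0.4 and 0.4, both F1 ratios were at or below -0.8, and all 4 F1 libraries lay below all 6 F0 libraries. Of the 14008 genes with a DMSO mean of at least 2 CPM, called expressed genes here, 0.278% passed. Because these RNA values chose the genes, they are given as a description and carry no test.

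All RNA-seq libraries were made from whole gastrulae of Massachusetts stock at 25 hours post fertilization. F0 DMSO embryos (3 libraries) developed in 0.1% DMSO, and F0 GSK embryos (3 libraries) in 5 µM GSK-3484862, a DNMT1 inhibitor, in the same amount of DMSO. Both came from pooled gametes of several males and females, the zygotes of each of 3 crosses being divided between GSK and DMSO. F1 GSK gastrulae (2 libraries) were untreated offspring of GSK-treated parents, each library from a line founded by a single pair chosen for low methylation. F1 MO gastrulae (2 libraries) were untreated offspring of parents injected as eggs with morpholinos against DNMT1 and UHRF1, also from separate lines. No untreated F1 line of untreated pairs was used in the RNA-seq, so generation, the founding pairs and methylation history cannot be told apart, and both F1 groups share the same DMSO controls. In whole embryos, fewer cells that express a gene and less RNA per cell cannot be told apart either.

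DNA methylation in cnidarians sits mostly on CpG sites inside the bodies of active genes (gene body methylation, gbM). DNMT1 copies the mark to the new strand after replication and UHRF1 brings it to the half-methylated site, so loss of either dilutes methylation as cells divide. De novo methyltransferases can set the mark again, and in animals without strong erasure in the germline a changed pattern can pass to offspring. The 39 genes carry only locus numbers in the annotation used here, so no function is given for any of them.

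Library totals ran from 20823699 to 29358798 RNA counts, so 1 CPM is over 20 counts. DMSO replicate 3 stood apart from the other F0 libraries, with correlations of log2 values of 0.924 to 0.959 to them against at least 0.965 among the rest. It lay outside the range of the other 5 F0 libraries in 20 of the 39 genes, a position it had in 62.5% of expressed genes. Without it the same rule kept 36 genes, of which 23 are among the 39.

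The 39 genes were lower in F1 MO than in F1 GSK at the median. The median log2 ratio was -1.07 in F1 GSK (range -2.26 to -0.80) and -1.49 in F1 MO (range -2.93 to -0.86), against -0.12 in F0 GSK. Over all expressed genes the medians were 0.06, 0.03 and 0.01. Within the limits of the rule, most of the 39 leaned down in F0 GSK too. In the all-group edgeR fit 31 were below 0 there, with a median log2 fold change of -0.17 against -0.006 over all tested genes. Without DMSO replicate 3 these were 25, -0.07 and 0.03. In single F1 libraries the median of the 39 was -1.14 and -1.02 in F1 GSK, and -1.53 and -1.27 in F1 MO. In 22 genes all 4 F1 libraries were at or below -0.8. The gap between the lowest F0 and the highest F1 library was narrow in many: its median was 1.32-fold, with 10 genes over 1.5-fold and 5 under 1.1-fold.

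Each part of the rule was far more common alone. The F0 GSK ratio was between -0.4 and 0.4 in 73.9% of expressed genes. Of these 14008 genes, 2.84% were at or below -0.8 in F1 GSK, 7.67% in F1 MO and 1.68% in both, and 2.36% had all F1 libraries below all F0 libraries, against 4.28% with all F1 above all F0. Of the 236 genes low in both F1 groups, 174 were also below -0.4 in F0 GSK, 8 were above 0.4, and 54 lay between (22.9%). The 39 are the 54 less 15 whose F0 and F1 libraries overlapped.

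**Figure D1:**
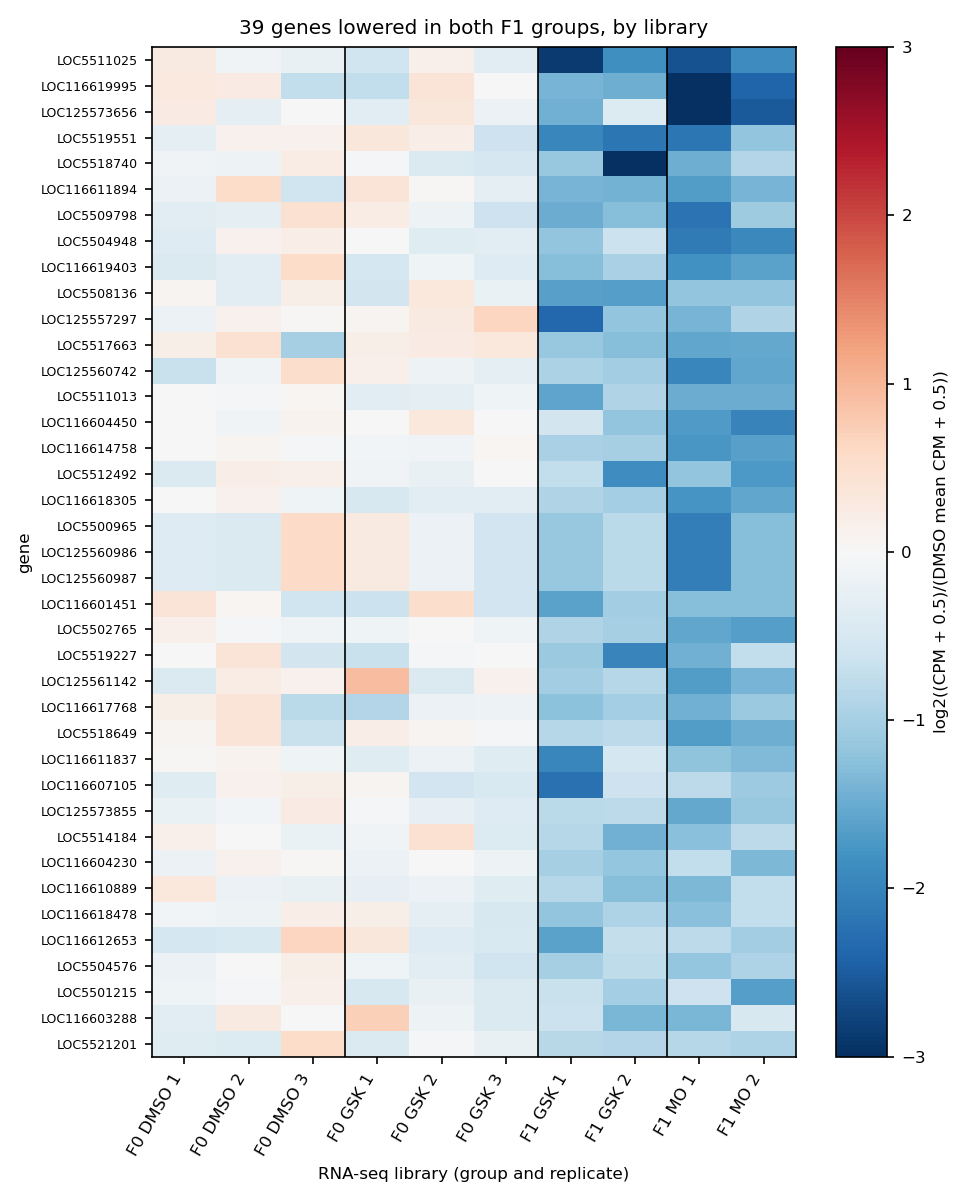
RNA level of each of the 39 genes (rows) in each of the 10 RNA-seq libraries (columns), as log2 of CPM plus 0.5 over the DMSO mean plus 0.5. Rows are ordered by the mean F1 ratio, from LOC5511025 at the top to LOC5521201 at the bottom, and colours end at -3 and 3. The 4 F1 columns are blue throughout.

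LOC5511025 (chromosome 4, 13577275 to 13579178) had the lowest mean F1 ratio. It measured 31.9, 24.7 and 22.8 CPM in DMSO, 17.4, 29.7 and 21.2 in F0 GSK, 3.19 and 7.03 in F1 GSK, and 3.93 and 6.82 in F1 MO. The group means were 26.4 ± 4.799 CPM in DMSO (SD, n = 3), 22.8 ± 6.28 in F0 GSK (n = 3), 5.11 ± 2.72 in F1 GSK (n = 2) and 5.37 ± 2.04 in F1 MO (n = 2), with ratios of -2.26 and -2.20 in the F1 groups. The lowest F0 library was 2.47-fold above the highest F1 library, the widest gap of the 39.

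LOC116619995 (chromosome 15, 3772665 to 3774386) was lower in F1 MO than in F1 GSK. Its values were 33.5, 32.4 and 16.3 CPM in DMSO, 16.3, 36.1 and 27.2 in F0 GSK, 10.1 and 9.67 in F1 GSK, and 2.81 and 4.75 in F1 MO. LOC125573656 (chromosome 11, 8607635 to 8611073) had the largest difference between lineages, a ratio of -0.84 in F1 GSK and -2.93 in F1 MO. It measured 6.17, 4.14 and 5.13 CPM in DMSO, 4.06, 6.66 and 4.50 in F0 GSK, 1.60 and 3.73 in F1 GSK, and 0 and 0.48 in F1 MO. One F1 GSK library came close to the lowest F0 library here, whereas both F1 MO libraries were near 0. This gene overlaps LOC5497468 in the annotation, and whether the counting used strand is not stated, so reads of the pair may be shared.

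LOC5519551 (chromosome 13) and LOC5518740 (chromosome 3) were lower in F1 GSK. LOC5519551 measured 7.88, 10.8 and 10.8 CPM in DMSO, 12.5, 11.3 and 6.20 in F0 GSK, 2.17 and 1.79 in F1 GSK, and 1.81 and 4.03 in F1 MO. LOC5518740 measured 18.4, 18.0 and 23.5 CPM in DMSO, 19.1, 14.6 and 14.0 in F0 GSK, 8.87 and 1.32 in F1 GSK, and 6.91 and 10.6 in F1 MO. Its ratio of -1.87 in F1 GSK rests mainly on the line at 1.32 CPM, 5.14-fold below the other line after adding 0.5 CPM, the widest spread between lines of one group among the 39.

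LOC116611894 (chromosome 2, 18778730 to 18782424) was among the abundant genes. It measured 285, 470 and 212 CPM in DMSO, 425, 329 and 267 in F0 GSK, 123 and 121 in F1 GSK, and 99.8 and 122 in F1 MO. Its 4 F1 lines lay close together although the F0 libraries spread over a wide range. It overlaps LOC5504248.

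**Figure D2:**
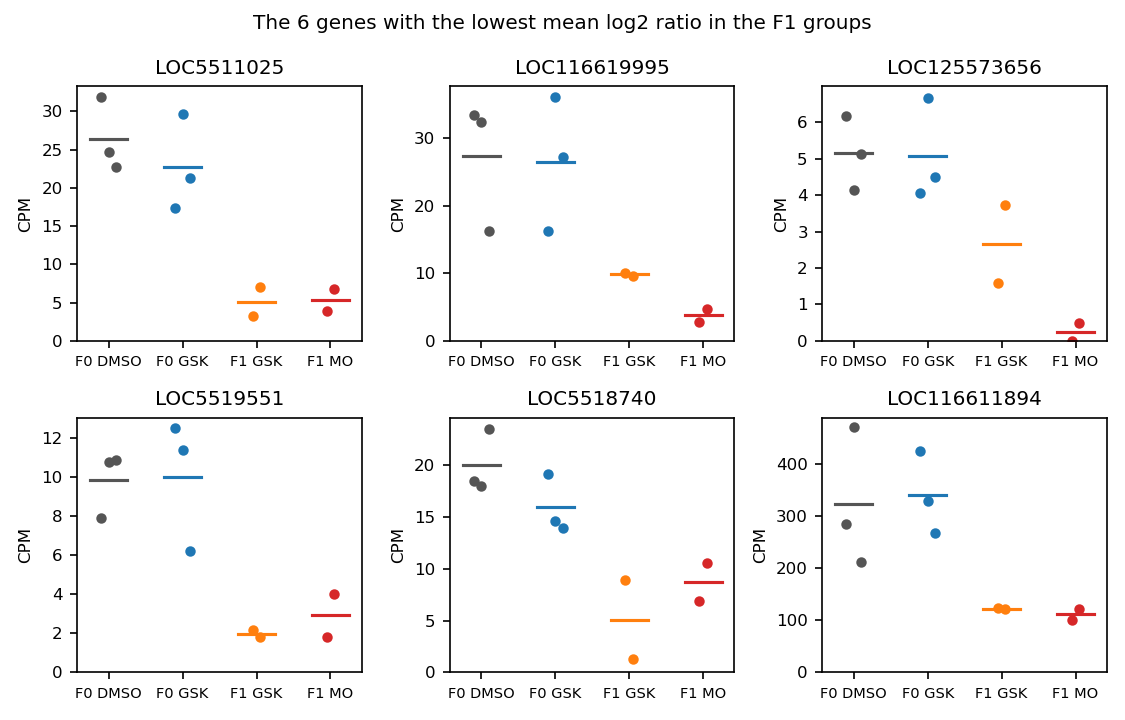
CPM in each RNA-seq library (points) and group mean (bars) of the 6 genes with the lowest mean F1 ratio, with the F0 groups on the left and the F1 groups on the right. All F1 points lie below all F0 points in each panel, and in LOC125573656 the F1 MO points are at 0 and 0.48 CPM.

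The other genes of the 12 with the lowest mean ratio were LOC5509798, LOC5504948, LOC116619403, LOC5508136, LOC125557297 and LOC5517663. Their F1 GSK ratios ran from -0.88 in LOC5504948 to -1.66 in LOC125557297, and their F1 MO ratios from -1.12 in LOC125557297 to -2.03 in LOC5504948. LOC125557297 is a low gene, at 1.75, 2.29 and 2.10 CPM in DMSO, 2.18, 2.59 and 3.47 in F0 GSK, 0 and 0.614 in F1 GSK, and 0.475 and 0.864 in F1 MO. LOC5504948 measured 4.64, 6.79 and 7.18 CPM in DMSO, 6.27, 4.73 and 4.803 in F0 GSK, 2.44 and 3.82 in F1 GSK, and 1.04 and 1.25 in F1 MO. In both genes few counts stand behind the F1 values, and 15 of the 39 genes had under 50 counts in at least 1 library.

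The 39 genes covered a wide range of levels, from 2.003 to 1624 CPM in DMSO with a median of 19.9. LOC5518649 (chromosome 3, 12911399 to 12914381) was the most abundant, at 1722, 2131 and 1017 CPM in DMSO, 1858, 1706 and 1570 in F0 GSK, 901 and 941 in F1 GSK, and 509 and 586 in F1 MO. The lowest F0 value, in DMSO replicate 3, was only 1.08-fold above the highest F1 value. LOC5517663 (chromosome 5) measured 219, 266 and 97.4 CPM in DMSO, 221, 229 and 240 in F0 GSK, 87.6 and 79.4 in F1 GSK, and 65.8 and 66.1 in F1 MO, and here too DMSO replicate 3 came closest to the F1 lines.

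LOC5504576, LOC5519227 and LOC116618305 made up the rest of the 6 most abundant. LOC116618305 (chromosome 15) had tight groups, at 83.4, 92.5 and 76.6 CPM in DMSO, 60.2, 67.3 and 67.0 in F0 GSK, 45.0 and 41.2 in F1 GSK, and 24.3 and 28.2 in F1 MO. Its levels stepped down from DMSO to F0 GSK to F1 GSK to F1 MO with no overlap between groups. LOC5519227 (chromosome 10) had F1 values of 44.1 and 24.2 CPM in F1 GSK and 35.2 and 58.1 in F1 MO, below an F0 range that began at 60.5. Together the 39 genes took 0.230% to 0.375% of counts in the F0 libraries, 0.150% and 0.155% in F1 GSK, and 0.0974% and 0.114% in F1 MO. LOC5518649 was the largest part of this sum, and equal genes of a tandem array enter it 3 times. Without LOC5518649 the sums were 1237 to 1616 CPM in the F0 libraries, 602 and 607 CPM in F1 GSK, and 465 and 558 CPM in F1 MO.

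F1 MO was lower than F1 GSK in 25 of the 39 genes, against 55.4% of expressed genes. Both F1 MO libraries lay below both F1 GSK libraries in 16 genes (30.6% of expressed genes) and above them in 1 (24.9%). The 25 and the 16 each hold the 3 equal genes of the tandem array, which are 1 measurement. LOC116604450 and LOC5504948 followed LOC125573656 and LOC116619995 in the size of the difference, with F1 MO minus F1 GSK ratios of -1.02 and -1.14. LOC116604450 (chromosome 6) measured 11.9, 11.2 and 12.9 CPM in DMSO, 11.9, 15.0 and 11.8 in F0 GSK, 8.02 and 5.00 in F1 GSK, and 3.32 and 2.59 in F1 MO. In a direct edgeR comparison of the F1 groups none of the 39 passed an adjusted p of 0.01, 8 had an unadjusted p under 0.05 (19.6% of all tested genes did), and DESeq2 called 3 lower. The F1 values also served to choose the genes, so these counts too are a description. The table-wide shares called were 0.326% lower and 0.128% higher with edgeR, and 2.44% lower and 1.54% higher with DESeq2.

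**Figure D3:**
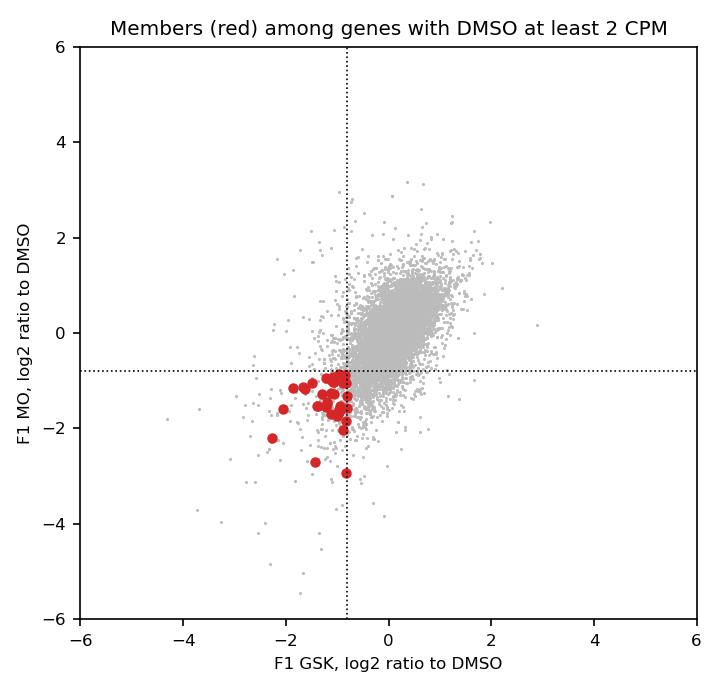
Log2 ratio to DMSO in F1 GSK (x axis) and F1 MO (y axis) of the 14008 expressed genes, with the 39 genes in red and dotted lines at -0.8. Both axes use the same DMSO libraries. The red points fill the lower left corner by the way they were chosen.

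Calls of the genes against DMSO differed between tools, and are printed only as description. With edgeR (all groups in 1 fit, adjusted p under 0.01), 0 of the 39 were called lower in F1 GSK and 14 in F1 MO, where 0.0117% and 2.42% of all tested genes were called lower. With DESeq2 the counts were 15 and 26, beside 0.998% and 6.49% of all genes. The 26 hold the 3 equal genes of the tandem array. At an unadjusted p under 0.05 edgeR had 38 and 37 of them, beside 15.3% and 32.4% of all tested genes. The choice of genes by these same values fixes such counts in large part, so nothing is read from them. Leaving out DMSO replicate 2 lowered the edgeR F1 MO count to 5, and leaving out F0 GSK replicate 3 lowered it to 9. Over all tested genes the lower calls also fell, from 415 of 17153 to 143 of 17133 and 243 of 17098. The median edgeR log2 fold change of the 39 in F1 MO was -1.61. It was -1.48 without F1 MO replicate 1 and -1.73 without F1 MO replicate 2.

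Just inside the limit lay LOC5501215, LOC116603288 and LOC5521201, with F1 GSK ratios of -0.83, -0.97 and -0.85 and F1 MO ratios of -1.05, -0.86 and -0.88. Just outside, on the F1 limit alone, lay LOC125559126 (-0.85 and -0.79), LOC5507172 (-0.80 and -0.77) and LOC116617542 (-0.77 and -1.50). LOC5521201 measured 56.9, 55.3 and 108 CPM in DMSO, 54.7, 70.1 and 62.7 in F0 GSK, 41.3 and 39.5 in F1 GSK, and 40.6 and 38.5 in F1 MO. Its 4 F1 lines were nearly equal, and its DMSO mean was raised by replicate 3.

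The 39 genes were spread over 14 chromosomes, with 7 on chromosome 2 and 5 on chromosome 11. Only 3 lay within 50 kb of another, and these form a tandem array on chromosome 2: LOC125560986 (16030798 to 16032138), LOC125560987 (16043443 to 16044783) and LOC5500965 (16056093 to 16057433). Their counts were identical in every library, at 20.7, 20.05 and 41.0 CPM in DMSO, 33.2, 23.9 and 18.1 in F0 GSK, 12.1 and 15.3 in F1 GSK, and 6.13 and 11.05 in F1 MO. How reads were divided between them is not stated and their sequences were not analysed here, so the 3 count as 1 measurement and the 39 genes hold 37 distinct ones. Counts out of the 39 are counts of genes, so the 3 enter them separately. The table has 96 such groups of equal genes, 315 genes in all.

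The array alternated with a second set of equal copies. The left neighbours LOC5499082, LOC125560990 and LOC125560989 shared a DMSO mean of 24.3 CPM and ratios of -1.10 in F1 GSK and -1.55 in F1 MO. They missed the rule on F0 GSK, at -0.48. Beside this array, only LOC116617789, next to LOC116617768, was at or below -0.8 in both F1 groups among the 53 expressed neighbours that are not among the 39. The neighbours' medians were -0.09 in F1 GSK and 0.03 in F1 MO.

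The genes were shorter than most, with a median genomic length of 4124 bp against 7448.5 bp over expressed genes. The 174 genes that were low in F0 GSK and both F1 groups were also short, at a median of 5265.5 bp. Recently assigned locus numbers were frequent: 22 of the 39 (56.4%) had a LOC116 or LOC125 number, against 20.7% of expressed genes and 43.1% of the 174 genes that were low in F0 GSK and both F1 groups. Of the 39, 13 overlap another coding gene, LOC5519551, LOC5517663, LOC116618305, LOC116619403 and LOC116617768 among them, and 2 a long non-coding RNA, so reads of these 15 may be shared.

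Gene body methylation was measured by Nanopore sequencing, which the choice of genes did not use. Gastrulae of an untreated cross gave the baseline. Only 6 of the 38 genes with a level were methylated from 10% mCG (15.8%), against 8537 of 13894 expressed genes (61.4%). The median was 0.188% mCG in the 38 genes and 20.9% in expressed genes, and 24 of them were under 1%. Among the 174 genes also low in F0 GSK, 53.0% of the 168 with a level were methylated. Each stage had 1 library, so these shares have no test.

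Gene length, level and locus number move with methylation, and their part in the low share was not tested. Of expressed genes no longer than 4124 bp, 56.3% were methylated, of those under 20 CPM in DMSO 41.1%, and of those with LOC116 or LOC125 numbers 48.1%. Among the 39 genes, the share was 4 of 17 with older numbers (23.5%) and 2 of 21 with newer ones (9.52%), against 64.8% of expressed genes with older numbers.

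At baseline 6 genes had 0 methylated calls: LOC116619995, LOC116603288, LOC5509798 and the 3 copies of the array. For LOC116619995 this was 0 of 2039 calls over 67 CpGs, which allows up to 0.147%. For LOC116603288 it was 0 of 1614 calls, which allows up to 0.186%. Intervals and limits cover counting error only, since calls on a read are not independent.

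The 6 methylated genes were LOC5502765, LOC5504576, LOC5518649, LOC5511025, LOC125561142 and LOC116614758. LOC5502765 (chromosome 13, 7615006 to 7628992) was at 42.6% mCG in the untreated gastrulae (95% Wilson interval 41.6 to 43.5%, 10243 calls), 3.28% in sperm of a GSK-treated male, 17.9% in F1 gastrulae of that male and an untreated female, and 16.04% in an F1 juvenile of this cross. LOC5504576 (chromosome 2, 16233883 to 16238039) had 39.03% (37.1 to 41.0%), 11.6%, 24.4% and 20.1% at the same stages. Both were lowest in sperm and stood between sperm and baseline in the F1 offspring.

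LOC5511025, the gene with the lowest mean F1 ratio, had 28.0% mCG at baseline (25.9 to 30.3%, 1578 calls), 3.62% in sperm, 10.99% in F1 gastrulae and 21.4% in the juvenile. LOC5518649, the most abundant, had 29.2% (27.3 to 31.2%), 13.4%, 21.0% and 11.2%, so its juvenile level was below its sperm level. LOC125561142 had 23.9% (22.0 to 26.0%), 6.47%, 14.6% and 21.2%. LOC116614758 had 22.1% (17.2 to 28.0%), 9.23%, 2.61% (0.891 to 7.39%, 3 of 115 calls) and 8.51%, so its F1 gastrula level was below its sperm level. It rests on 226 calls over 21 CpGs at baseline and drops out when 20 calls per CpG are asked for. Over the 6 genes the medians were 28.6% at baseline, 7.85% in sperm, 16.2% in F1 gastrulae and 18.1% in the juvenile, against 40%, 17.6%, 27.7% and 26.3% over methylated expressed genes. The RNA-seq lines came from other crosses, with both parents treated or injected, and whether this male also founded a line is not stated. Methylation in the RNA-seq groups was measured by EM-seq, which was not analysed here.

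RNA of LOC5502765 was 41.7, 36.2 and 35.0 CPM in DMSO, 34.1, 37.8 and 34.1 in F0 GSK, 19.99 and 18.5 in F1 GSK, and 12.3 and 11.6 in F1 MO. LOC5504576 measured 90.8, 102 and 118 CPM in DMSO, 94.3, 81.4 and 67.7 in F0 GSK, 51.7 and 60.4 in F1 GSK, and 46.1 and 53.8 in F1 MO. The methylated LOC5502765 was lower in F1 MO than in F1 GSK without overlap, and LOC5504576 overlapped between the F1 groups.

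**Figure D4:**
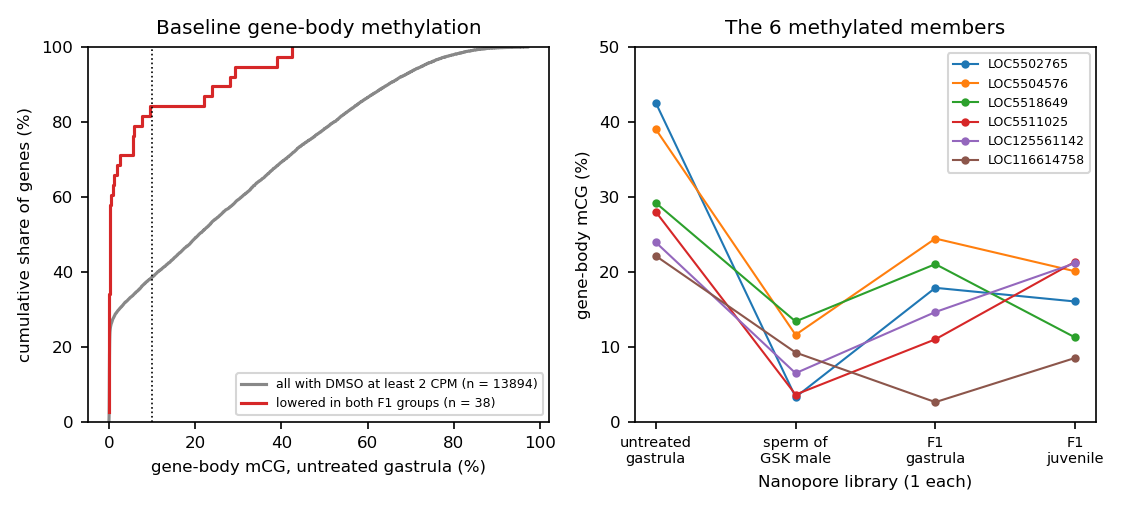
Left, cumulative share of genes (y axis) by gene body mCG in untreated gastrulae (x axis) for 38 of the 39 genes and 13894 expressed genes, with a dotted line at 10%, under which lie 32 of the 38. Right, mCG of the 6 methylated genes in 4 Nanopore libraries, where LOC5502765 goes from 42.6% to 3.28% in sperm and 17.9% in F1 gastrulae.

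Chromatin accessibility at the promoters was measured by ATAC-seq, also outside the choice of genes, with 3 libraries of F0 GSK and 2 of every other group. A promoter reached from 500 bp before to 200 bp after the gene start. Strand could be inferred for 16 of the 39 genes and 62.3% of expressed genes. In the others both gene ends were used, so 3′ ends may be more frequent among the windows of the 39. Peaks were found in these windows in 28 of the 39 genes (71.8%, against 87.1% of expressed genes), 32 peaks in all. In the all-group edgeR fit, no promoter peak of the 39 genes was called in any of the 4 contrasts at an adjusted p under 0.01. Of the 10461 promoter peaks of expressed genes, 0.0% were. Over all 36284 peaks this fit called only 2, both higher in F1 MO against DMSO. The missing calls therefore do not show that promoters were unchanged. With only the compared groups, edgeR called 83 peaks lower and 522 higher in F0 GSK against DMSO. At an unadjusted p under 0.05 in the all-group fit, the 39 genes had 1 promoter peak in F1 GSK, 6 in F1 MO and 1 in F0 GSK against DMSO, and 7 between the F1 groups. The shares of promoter peaks of expressed genes at that level were 5.91%, 18.1%, 0.746% and 25.0%, so 6 and 7 of 32 were near the background. DESeq2 called 0, 2, 0 and 2 of them, all lower. Over promoter peaks of expressed genes DESeq2 called 0.239% lower and 0.143% higher for F1 GSK against DMSO, 3.32% lower and 3.99% higher for F1 MO, 0.0191% lower and 0.0956% higher for F0 GSK, and 3.82% lower and 7.44% higher for F1 MO against F1 GSK. The edgeR count in F1 MO was 3 without F1 MO replicate 1 and 6 without F1 MO replicate 2, and between the F1 groups 6 and 5. In those fits the share called among promoter peaks of expressed genes also went up from 0.0%, to 11.9% and 10.1% in F1 MO and to 17.1% and 13.3% between the F1 groups.

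The median log2 fold change of the 32 peaks was -0.21 in F1 GSK, 0.01 in F1 MO and -0.10 in F0 GSK, against -0.05, 0.14 and -0.07 over promoter peaks of expressed genes. Without F1 MO replicate 2 the F1 MO median was -0.32 against 0.07. With peaks up to 1000 bp from a gene start the F1 GSK median was -0.30 against -0.04. Of the 32 peaks, 23, 16 and 22 were below 0. Both F1 GSK libraries lay below all 5 F0 libraries in 6 peaks (13.9% of promoter peaks of expressed genes) and above in 4 (12.8%), and both F1 MO libraries below in 9 (19.3%) and above in 3 (13.2%). All 4 F1 libraries lay below all 5 F0 libraries in 3 peaks, at LOC5511013, LOC5502765 and LOC116618305 (2.87% of promoter peaks of expressed genes), and above them in 1, at LOC125573656 (1.84%). The strands of LOC116618305 and LOC125573656 could not be inferred, so their peaks, at the right gene end, may not be promoters. The F1 libraries were shallower, with 11366484 to 19253881 insertions in peaks against 24059685 to 33980509 in F0. They were also less alike, with a correlation between the libraries of a group of 0.819 in F1 GSK and 0.683 in F1 MO against 0.982 in DMSO.

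LOC5508136 and LOC116617768 are named here after their values were seen, as the promoter peaks with the lowest p in F1 MO. The promoter peak of LOC5508136 (chromosome 11, 6359826 to 6360046) had 11.9 and 11.2 CPM in DMSO, 6.53, 6.75 and 8.10 in F0 GSK, 6.77 and 3.22 in F1 GSK, and 0.142 and 0.160 in F1 MO. The F1 MO values are 2 insertions in each library, and the DMSO to F1 MO ratio was 76.7 (95% exact interval 29.8 to 282.1, counting error only). Its edgeR adjusted p was 0.0213 in F1 MO against DMSO and 0.0169 against F1 GSK, and DESeq2 gave 1.7e-08 and 9.0e-06.

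A second peak inside LOC5508136 (6361657 to 6361953) went the other way between the F1 groups. It had 9.74 and 13.4 CPM in DMSO, 11.2, 5.84 and 9.35 in F0 GSK, 3.17 and 6.70 in F1 GSK, and 20.7 and 29.5 in F1 MO. The edgeR log2 fold change between F1 MO and F1 GSK was 2.56 ± 0.62 (SE, adjusted p = 0.0321). The RNA of LOC5508136 was 27.6, 20.84 and 29.35 CPM in DMSO, 17.6, 32.4 and 22.4 in F0 GSK, 8.11 and 7.98 in F1 GSK, and 11.1 and 11.2 in F1 MO. So the group with the nearly empty promoter peak had the higher RNA of the F1 groups.

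The peak over the left end of LOC116617768 (chromosome 11, 744579 to 746594) also covers the right end of LOC116617789 (725680 to 744874). The strand of LOC116617768 could not be inferred, so the peak cannot be assigned to its promoter alone. The RNA ratio of LOC116617789 was -1.05 for F0 GSK embryos, -1.37 for F1 GSK and -2.38 for F1 MO. The peak had 81.0 and 72.5 CPM in DMSO, 44.6, 49.9 and 47.4 in F0 GSK, 56.0 and 60.1 in F1 GSK, and 36.3 and 23.2 in F1 MO. The edgeR log2 fold change in F1 MO was -1.18 ± 0.24 (SE, adjusted p = 0.0284). F0 GSK was lower than DMSO here too, at -0.72 ± 0.21 (SE, adjusted p = 1.0). At an adjusted p under 0.05 these 2 peaks were the only promoter peaks of the 39 genes called in F1 MO, beside 2.44% of promoter peaks of expressed genes called lower and 2.11% higher. Between the F1 groups only that of LOC5508136 was, beside 3.15% lower and 5.58% higher. The RNA of LOC116617768 was low, from 0.995 to 3.08 CPM in F0 and 0.518 to 0.849 in F1.

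**Figure D5:**
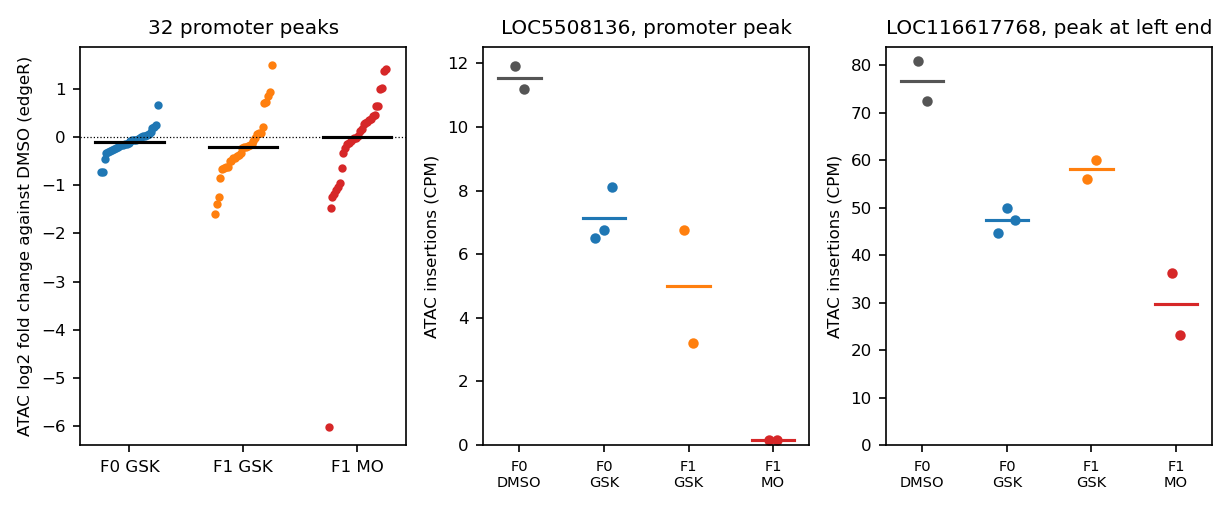
Left, edgeR log2 fold change against DMSO of the 32 promoter peaks (points) with their median (bars) in F0 GSK, F1 GSK and F1 MO. Middle and right, ATAC CPM in each library (points) and group mean (bars) of the promoter peak of LOC5508136, at 0.142 and 0.160 in F1 MO, and of the peak at the left end of LOC116617768, at 36.3 and 23.2, which also covers an end of LOC116617789.

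CAGE-seq, which maps the capped 5′ ends of RNA, was done on untreated and F0 GSK gastrulae (2 libraries each) and not on F1. A cluster of start sites lay within 500 bp of a gene end in 16 of the 39 genes (41.0%), against 62.3% of expressed genes. The untreated gastrulae were labelled wild type and not DMSO, and no source ties them to the crosses of the GSK embryos. So solvent and cross cannot be told apart from GSK in CAGE-seq. Of 14 genes with an inferred strand and a cluster in all 4 libraries, both F0 GSK libraries were above both untreated ones in 8 and below in 2. Over the 8395 expressed genes with an inferred strand and such clusters, the shares were 29.3% above and 50.5% below. With 2 libraries against 2 no exact test can pass 0.05, so these are values only.

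At LOC5518649 the signal was 1881 and 2252 in untreated and 4669 and 6983 in F0 GSK gastrulae. Its RNA means were 1624 CPM in DMSO and 1711 CPM in F0 GSK, a comparison with other controls. At LOC5517663 it was 280 and 271 in untreated and 562 and 746 in F0 GSK. LOC5511013 went down, from 39.9 and 37.8 to 22.3 and 26.2. The signal was normalized to a power law by the authors, so its scale differs from CPM. LOC116603288 had clusters of 3765 to 10386 at its start beside RNA of 2.02 CPM in DMSO, and it overlaps LOC116603342, at 16.1 CPM in DMSO, so the cluster cannot be assigned to it.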

How the data were processed

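RNA-seq and ATAC-seq were deposited as unscaled counts, per gene and per merged peak. The methods describe kallisto and, in parallel, HISAT2 with TElocal, and which made the gene table is not given in the sources used here. ATAC reads were mapped with Chromap, and peaks called with MACS3 per library and merged. For CAGE-seq the authors gave each cluster of start sites a signal scaled to a power law. Nanopore libraries were deposited with 2 counts at each CpG, the valid calls and the methylated ones. EM-seq libraries, which were also made for each of the RNA-seq groups, were not analysed here. All use RefSeq assembly jaNemVect1.1, whose gene table gave the coordinates. Of the per-sample columns, 0 were left unused.

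Counts were fitted with edgeR 4.0.16 in R 4.3.3 (TMM, filterByExpr, quasi-likelihood, 1 group term, all groups together, Benjamini-Hochberg over 17153 genes or 36284 peaks, FDR < 0.01), with DESeq2 1.42.0 as the other tool. The SE of a fold change was taken as its size over the square root of F. The fits were run on simulated data with the same dispersion in all groups, where 200 features changed by a log2 of 2. They recovered 94.5% to 100% of these. The real F1 ATAC-seq libraries varied more: the SD of log2 promoter signal between libraries was 1.02 in F1 MO and 0.575 in F1 GSK, against 0.167 in DMSO. So the simulation does not show what the fits can detect in F1. CpGs needed 10 valid calls and genes 5 such CpGs, and mean depth was 33.5 to 61.4 calls per CpG. Python 3.11.15, pandas 2.3.3 and scipy 1.17.1 were used.

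The gene table used here has no strand, so strand was taken from CAGE clusters at a single gene end (16 of the 39 genes), and both ends were used as promoters in the others. Product names, promoter motifs and cell type markers were planned and not analysed here, so the embryos' stage and the targeted genes were not checked by markers. Nothing states that libraries of a group came from separate cultures beyond the broodstocks and lines. With 2 or 3 libraries per group, p-values measure only the spread between libraries within groups. In the all-group fits this spread was taken over all groups, not only the compared ones. F0 GSK and DMSO libraries share crosses, but no source ties replicate numbers to crosses and same-numbered libraries did not deviate together, so numbers were not taken as pairs. Named genes were the 12 lowest in F1, the 6 most abundant, 3 on each side of the F1 limit, those near each other, the 4 that differ most between the F1 groups, and the extremes of baseline methylation. The genes and lists were chosen with earlier results of these data known. Other tools, scalings, filters, windows, call minimums, a replicate block and each library left out were tried.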

Additional observations from a re-analysis of the deposited data

How the results depend on the processing

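The number of genes that pass the rule was 18 with an F1 limit of -1, and 36 to 77 with 1 library left out, the highest without F1 GSK replicate 2 and 59 without F1 MO replicate 2. With a library left out, 23 to 37 of the 39 passed. TMM gave 50 and RLE 51, with 37 and 38 of the 39 among them. Adding 2 CPM in place of 0.5 gave 26, with 25 of the 39, and adding 0.1 CPM gave 41, with 36 of the 39. Of the 39, genes called lower in F1 GSK were 0 in the all-group edgeR fit, 7 at FDR < 0.05 and 15 with DESeq2. With an F0 library left out they were 0 to 1. Over all genes these counts were 2, 48, 192 and 0 to 4. In F1 MO they were 14, then 29 at FDR < 0.05, 26 with DESeq2, 2 with only the compared groups and 7 with the replicate block. With an F0 library left out they were 5 to 15. Over all genes these F1 MO counts were 415, 1367, 1249, 79, 121 and 143 to 460. The genes tested numbered 16750 to 19231 across these settings. DMSO and F0 GSK share crosses, but same-numbered libraries did not deviate together in RNA-seq (correlations of -0.55, -0.13 and -0.42, against 0.41 for DMSO 1 with F0 GSK 3 and 0.43 for DMSO 3 with F0 GSK 1), so which libraries share a cross is not known. The block by number changed no other call. Promoter peaks called in F1 MO against DMSO were 0, then 2 at FDR < 0.05, 2 with DESeq2, and 0 to 6 with a library left out. Between the F1 groups they were 0, then 1 at FDR < 0.05, 2 with DESeq2, and 0 to 6. In F0 GSK there were 0, and 1 with only the compared groups, where the whole table had 83 peaks lower and 522 higher against 0 in the all-group fit. The cause was not tested. With a library left out, the median promoter peak was -0.32 to -0.17 for F1 GSK, -0.32 to 0.10 for F1 MO and -0.18 to -0.042 for F0 GSK. Between the F1 groups it was 0.029 to 0.19, and was 0.21 over gene-body peaks. Methylated genes (6, or 5 at 20 calls) and genes with a CAGE cluster (14 to 16) changed little. With 5hmC calls added, 6 genes were methylated. The median over the 38 genes was then 0.352% against 0.188%, and over expressed genes 21.2% against 20.9%. Of 336 alternative values for the F1 ratios of named genes, 58 moved by more than 1 SD, and their sign is no sign of stability, since these ratios chose the genes. Where 1 F1 library was left, it was assumed to vary like the other groups.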
